A study of Homo sapiens with 8 samples.

Results

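The comparison described here is the effect of adding osimertinib to cells that already receive alpelisib. It was read from the 4 arrays that contain alpelisib, out of 8 in the series, namely 2 arrays of both drugs against 2 arrays of alpelisib alone. The cells were NCI-H1975, an established line from a human lung adenocarcinoma with mutant EGFR. Without L-histidinol, 1 array held cells given 1 µM alpelisib and 1 array held cells given the same alpelisib with 10 nM osimertinib. The other two conditions repeated these treatments in medium with 2 mM L-histidinol, a histidine analogue that hinders the charging of histidine tRNA. Every culture was collected after 24 hours, and DMSO was the vehicle. The remaining 4 arrays (vehicle and osimertinib alone, each without and with L-histidinol) entered the estimate of spread and one comparison below. All groups are 1 cell line at 1 dose of each drug, and each condition has 1 array, with nothing in the labels on separate cultures. The p-values below therefore measure only the spread of these arrays around a fit that adds an L-histidinol effect to the drug effects. That spread may be technical, and it also holds any change of a drug effect with L-histidinol.

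Osimertinib binds mutant EGFR covalently and blocks its kinase, and alpelisib blocks the alpha isoform of the lipid kinase PI3K. In cells driven by EGFR, the receptor feeds the RAS, RAF, MEK and ERK kinases, which switch on ETS and AP-1 factors and cyclin D1, and the PI3K and AKT kinases, which hold FOXO factors out of the nucleus. Active ERK also turns on its own brakes, the DUSP phosphatases and the Sprouty and SPRED proteins. Cyclin D with CDK4 or CDK6 releases E2F factors from RB, and E2F factors then raise the genes of DNA replication. Cells on alpelisib alone have the PI3K branch inhibited while the receptor can still signal to ERK, and the question put by this comparison is what an EGFR inhibitor changes on that background.

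Values are log2 of the deposited intensity, and a difference is combination minus alpelisib, the mean of the pair without and the pair with L-histidinol, given ± the standard error of limma's fit (2 arrays against 2). Where 2 values are given for a treatment, the first is the array without L-histidinol. The genes described were taken by size of difference within each list and over all genes, and others were added after their values were seen. A gene is said to have risen or fallen where limma's p-value, adjusted over all 19775 genes (Benjamini-Hochberg), was below 0.05. Osimertinib on top of alpelisib raised 2897 genes (14.6% of those tested) and lowered 2838 (14.4%), 29% in all. Brighter genes were called more often. When only the 11627 genes with a mean log2 of at least 5 were fitted, 5675 were called, 2813 higher and 2862 lower. The median difference over all genes was 0.005 and the median size of a difference 0.16. The change was at least 2-fold for 226 of the genes that rose and 307 of those that fell, and at least 4-fold for 9 and 21. All called genes moved the same way in both pairs, which a call in this fit largely requires. The 2 arrays of both drugs did not overlap the 2 of alpelisib alone in 53.7% of all genes, so separation of the groups by itself sets no gene apart. Leaving out the alpelisib array without L-histidinol reduced the called genes to 2968, and leaving out its L-histidinol partner to 3692. Leaving the L-histidinol term out of the fit gave 2196.

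The largest falls of single genes were among the outputs of ERK. Of 17 measured genes of ERK feedback and its ETS factors, 13 fell and 0 rose, with a median difference of -1.09. DUSP6, the phosphatase that dephosphorylates ERK in the cytoplasm, read 7.93 and 8.47 with alpelisib alone and 4.31 and 4.62 with both drugs. For this gene the combination arrays lie below the median over all genes (5.88 on each), and the 2 groups are far apart. The difference of -3.73 ± 0.18 (adjusted p = 4.7e-07) was the largest fall measured, and how far low intensity bounds its size was not tested. ETV5, an ETS factor of the PEA3 group, went from 8.19 to 5.10 without and from 8.55 to 5.48 with L-histidinol, a difference of -3.08 ± 0.17 (adjusted p = 9.7e-07). Its relative ETV4 fell by 2.10 ± 0.11 and the third member, ETV1, by 1.32 ± 0.21. PHLDA1, an ERK-induced pleckstrin domain protein, fell by 1.77 ± 0.08 to 8.92 and 9.46. The ERK phosphatases DUSP4 and DUSP5 fell by 1.28 ± 0.10 and 1.05 ± 0.08. Among the brakes that act above ERK, SPRY4 (-1.12 ± 0.19), SPRED1 (-1.09 ± 0.09) and SPRED2 (-0.88 ± 0.09) fell. SPRY2 (-0.24 ± 0.11, adjusted p = 0.12), SPRY1 (-0.12 ± 0.12, adjusted p = 0.52) and SPRED3 (-0.16 ± 0.11, adjusted p = 0.34) did not pass the test.

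**Figure D1:**
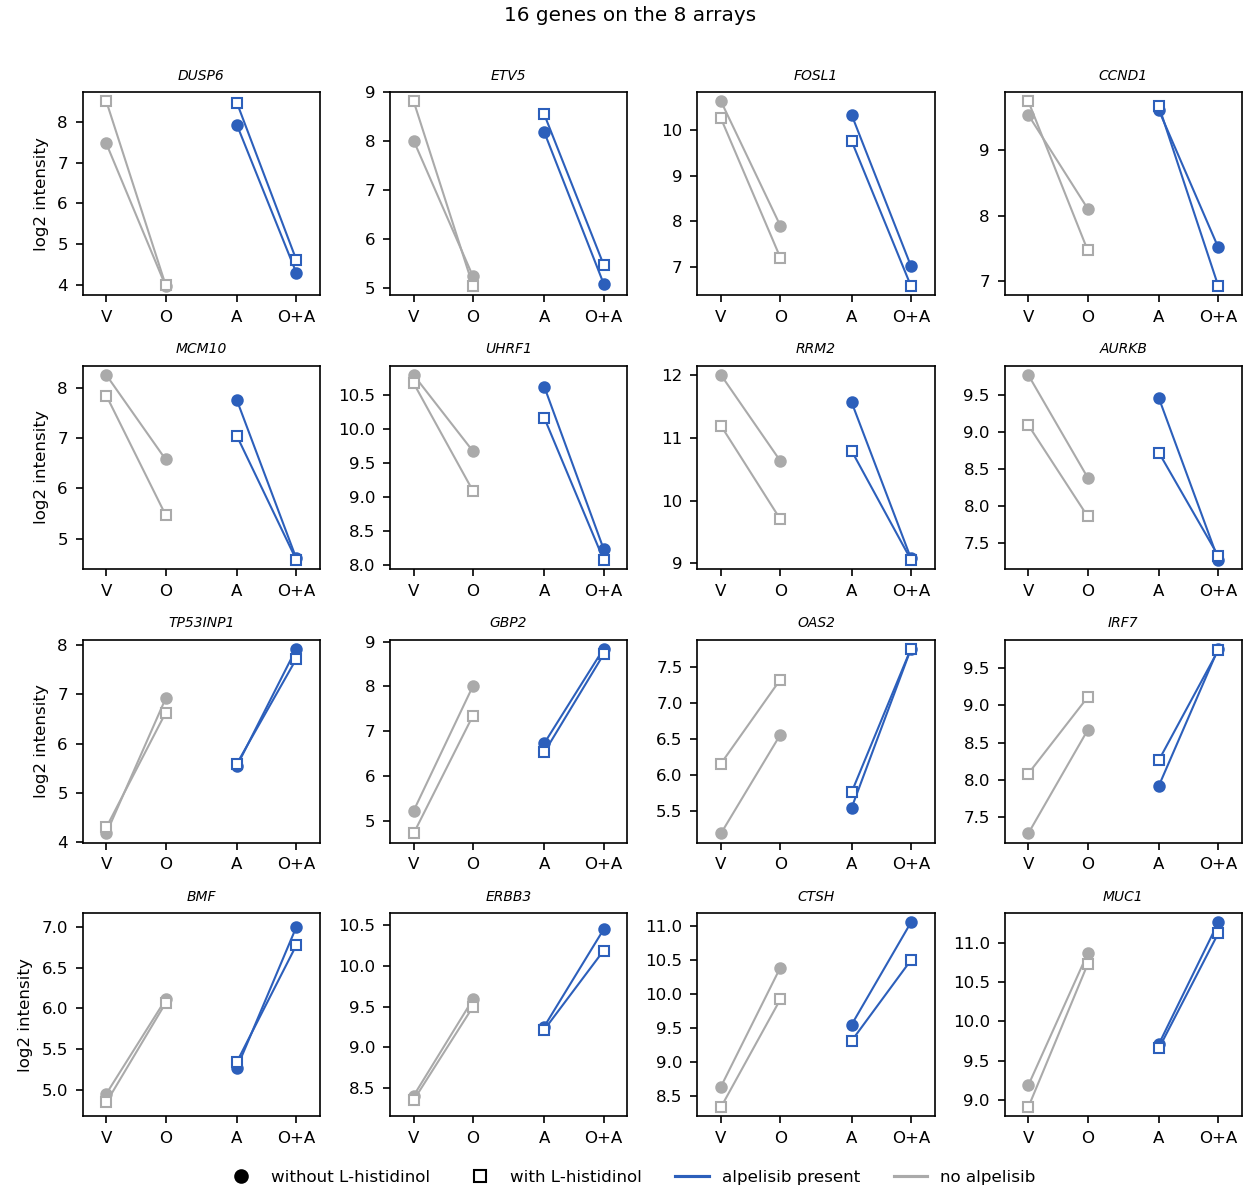
Log2 intensity of 16 genes on all 8 arrays, with V for vehicle, O for osimertinib, A for alpelisib and O+A for both drugs; filled circles are arrays without and open squares arrays with L-histidinol, blue lines join alpelisib to both drugs and grey lines vehicle to osimertinib. In each of the 16 panels both blue lines run the same way, and both O+A points lie outside the range of the A points.

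Among the AP-1 and EGR factors, which ERK and other kinases induce within minutes of a stimulus, members went both ways. Of 14 measured, 4 fell and 5 rose, with a median of 0.00. FOSL1, the FRA-1 subunit that depends on sustained ERK activity, read 10.34 and 9.77 with alpelisib alone and 7.02 and 6.59 with both drugs. FOSL1 fell by 3.25 ± 0.09 (adjusted p = 8.1e-09), the second largest fall measured. EGR1, a zinc finger factor under ETS control, went from 7.42 to 5.46 without and from 8.51 to 5.51 with L-histidinol (-2.48 ± 0.25, adjusted p = 2.8e-05). Its level with both drugs was alike in the pairs, while its alpelisib level was higher with L-histidinol. MAFF, a small MAF factor, fell by 0.58 ± 0.11. FOS also fell (-0.52 ± 0.17), but it lost the call without the alpelisib array (-0.65, adjusted p = 0.083), without its L-histidinol partner (-0.38, adjusted p = 0.31) or without the combination array that had no L-histidinol (-0.30, adjusted p = 0.36). In the other direction JUNB, FOSL2, JUND and KLF6 rose by 0.48, 0.49, 0.33 and 0.33, and JUN itself stood at 0.03 ± 0.08 (adjusted p = 0.84). ATF3, a stress factor of the ATF family, rose by 1.34 ± 0.08, but by 0.19 (adjusted p = 0.29) when marked probe sets were left out. Marked means a name ending in _a_at, _s_at or _x_at, whose probes may match several transcripts of a gene or other genes. Another marked ATF3 probe set gave 0.86. Without the L-histidinol term in the fit, 3 members were called higher, and FOS and ATF3 were not called (adjusted p = 0.11 and 0.082).

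Cyclins, E2F factors and kinases of the G1 to S transition fell, and several inhibitors of cyclin-dependent kinases rose. Of 19 measured G1 cyclins, E2F factors and CDK inhibitors, 14 fell and 3 rose, median -0.71. CCND1, cyclin D1, the partner of CDK4 and CDK6, is counted with the ERK outputs above and read 9.60 and 9.66 with alpelisib alone and 7.52 and 6.93 with both drugs. That is a fall of 2.41 ± 0.17 (adjusted p = 4.6e-06), or 5.32-fold, with both combination arrays below both alpelisib arrays. CCNE2, a cyclin E that drives CDK2, went from 8.22 to 5.57 without and from 7.38 to 5.31 with L-histidinol (-2.36 ± 0.21, adjusted p = 1.4e-05). CDC25A, the phosphatase that activates CDK2, fell by 1.99 ± 0.11, the other cyclin E, CCNE1, by 1.21 ± 0.12, and CDK2 itself by 1.29 ± 0.12. The measured E2F factors E2F1 (-1.02), E2F2 (-0.71), E2F3 (-0.56), E2F7 (-0.99) and E2F8 (-1.32) fell, where E2F7 and E2F8 are known as repressors. The 3 genes of this list that rose were all CDK inhibitors, CDKN1A or p21 (0.79 ± 0.11), CDKN1C or p57 (0.96 ± 0.12) and CDKN2B or p15 (0.92 ± 0.11). CDKN2D stood at 0.06 ± 0.15 (adjusted p = 0.83). CDKN1B, the p27 inhibitor, is counted below with the FOXO targets and rose in both pairs by 0.60 (0.60 ± 0.07, adjusted p = 6.8e-05).

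Every measured gene of DNA replication and nucleotide supply fell, 31 of 31, with a median difference of -1.60 and a range from -2.81 (MCM10) to -0.96 (TK1). MCM10, which helps load the polymerase at origins, read 7.76 and 7.04 with alpelisib alone and 4.61 and 4.58 with both drugs, a fall of 2.81 ± 0.19 (adjusted p = 3.4e-06). DTL, the receptor of a ubiquitin ligase that removes CDT1 in S phase, went from 9.11 to 5.92 without and from 8.76 to 6.53 with L-histidinol (-2.71 ± 0.20, adjusted p = 4.9e-06). CDC6, the licensing factor that brings the MCM helicase to origins, fell by 2.33 ± 0.18. RRM2, the regulated subunit of ribonucleotide reductase, read 11.57 and 10.80 with alpelisib alone and 9.08 and 9.06 with both drugs. Both combination arrays of RRM2 met at nearly the same level, although the alpelisib arrays differed, and the fall was 2.11 ± 0.16 (adjusted p = 6.2e-06). UHRF1, which keeps DNA methylation through replication, went from 10.62 to 8.24 without and from 10.16 to 8.08 with L-histidinol (-2.23 ± 0.10, adjusted p = 3.7e-07). The helicase subunits MCM2 to MCM7 fell by 1.04 (MCM7) to 1.94 (MCM5). The sliding clamp PCNA fell by 1.88 ± 0.12, thymidylate synthase TYMS by 1.75 ± 0.17 and the GINS subunit GINS2 by 2.04 ± 0.19. Without such marked probe sets 21 of the 23 members still measured were called lower.

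The promoters of these genes were read for the E2F site, since E2F factors are the textbook regulators of this group. Promoter stretches come from RefSeq on GRCh38.p14, and a window of 250 bases before the annotated start was searched on both strands. Promoters were on hand for 15384 of the 19775 genes. An E2F site was any of TTTGGCGC, TTTCCCGC, TTTCGCGC or TTTGCCGC, and each motif was searched on its own, so matches of different motifs may overlap. It was present in 11 of 28 promoters of the replication list (39.3%), in 5 of 14 of the G1 list (35.7%) and in 3.6% of all promoters. The following 4 stretches, chosen after the values were seen, belong to genes that fell and hold a match, printed 5′ to 3′ on the gene's strand with the match in capitals.
DTL, chr1:212035658-212035747, plus strand: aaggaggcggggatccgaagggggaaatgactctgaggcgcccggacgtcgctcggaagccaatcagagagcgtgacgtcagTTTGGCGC
UHRF1, chr19:4909411-4909500, plus strand: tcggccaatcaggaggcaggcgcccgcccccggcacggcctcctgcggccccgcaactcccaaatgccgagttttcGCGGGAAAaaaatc
GINS2, chr16:85688955-85689044, minus strand: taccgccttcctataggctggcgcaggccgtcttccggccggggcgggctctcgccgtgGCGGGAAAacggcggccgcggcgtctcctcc
PCNA, chr20:5126623-5126712, minus strand: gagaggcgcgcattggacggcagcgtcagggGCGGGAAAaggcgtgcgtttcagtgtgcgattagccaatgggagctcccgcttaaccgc
The match of DTL is in the forward sense and those of UHRF1, GINS2 and PCNA in the reverse sense. Such a match describes the letters of the window and shows no binding. Other motifs were searched in the lists above and below. The ETS site CCGGAAGT was in 0 of 11 promoters of the ERK list and 5.1% of all. The AP-1 site TGANTCA, with N any base, was in 0 of 12 of the AP-1 and EGR list and 5.0% of all. The FOXO site GTAAACA was in 1 of 20 of the FOXO list (5.0%) and 2.2% of all.

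Genes of G2 and mitosis also fell. All 30 of 30 measured fell, with a median of -1.01. AURKB, the kinase of the chromosomal passenger complex, read 9.45 and 8.72 with alpelisib alone and 7.28 and 7.33 with both drugs, a fall of 1.79 ± 0.15 (adjusted p = 1.0e-05). MAD2L1, a spindle checkpoint protein, went from 9.64 to 7.74 without and from 9.41 to 8.15 with L-histidinol (-1.58 ± 0.12, adjusted p = 5.1e-06). CDK1, the kinase of mitotic entry, fell by 1.45 ± 0.15 and its partner cyclin A2, CCNA2, by 1.34 ± 0.15. Cyclin B1, CCNB1, fell by 0.87 ± 0.13, the kinesin KIF23 by 1.34 ± 0.16 and the proliferation antigen MKI67 by 1.06 ± 0.16. FOXM1, a factor that drives late cell cycle genes, had the smallest fall of the list (-0.35 ± 0.11, adjusted p = 0.026). In bulk RNA, fewer cells in a phase and less RNA of that phase per cell cannot be told apart. The cell cycle homology region (TTTGAA or TTCGAA), the element of late cell cycle promoters, was found on either strand in 13 of 24 promoters of this list (54.2%) and in 11.8% of all. The CCAAT box was found in 83.3% of the list and 34.1% of all. PLK1 (fall of 1.18 ± 0.16), BUB1B (1.12 ± 0.14) and KIF23 hold the element in the stretches below, again with the match in capitals.
PLK1, chr16:23678799-23678888, plus strand: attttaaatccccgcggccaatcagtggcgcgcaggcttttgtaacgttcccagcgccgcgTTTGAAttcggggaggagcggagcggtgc
BUB1B, chr15:40160979-40161068, plus strand: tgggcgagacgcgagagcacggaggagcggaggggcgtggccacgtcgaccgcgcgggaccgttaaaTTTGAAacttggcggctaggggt
KIF23, chr15:69414259-69414348, plus strand: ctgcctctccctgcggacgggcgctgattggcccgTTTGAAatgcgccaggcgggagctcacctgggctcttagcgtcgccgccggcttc
The first base of the match lies 29 bases before the annotated start in PLK1, 23 in BUB1B and 55 in KIF23.

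MYC and the genes of ribosome biogenesis, many of which MYC regulates, fell in 19 of 20 cases with a median of -0.71. MYC itself read 10.90 and 11.39 with alpelisib alone and 10.16 and 10.90 with both drugs. Its fall of 0.61 ± 0.07 (adjusted p = 5.1e-05) shows within each pair, but the groups touch, the alpelisib array without L-histidinol and the combination array with it both reading 10.90. ODC1, the first enzyme of polyamine synthesis, fell by 1.19 ± 0.08 to 10.23 and 10.73. The nucleolar proteins NOP16 (-1.06 ± 0.13) and RRP9 (-0.98 ± 0.10) and the RNA polymerase I subunit POLR1B (-0.91 ± 0.09) fell. Only NOB1 of this list did not pass the test (-0.05 ± 0.10, adjusted p = 0.81). Without the L-histidinol term in the fit MYC was not called (adjusted p = 0.27).

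FOXO targets moved up. Of 23 measured genes of FOXO targets and PI3K feedback, 16 rose and 0 fell, with a median of 0.62. TNFSF10, the death ligand TRAIL, read 3.71 and 3.39 with alpelisib alone and 5.44 and 5.30 with both drugs. It was dim on every array and rose by 1.82 ± 0.14 (adjusted p = 5.9e-06). KLHL24, a KELCH adaptor of a ubiquitin ligase, went from 7.30 to 8.91 without and from 8.14 to 9.14 with L-histidinol (1.30 ± 0.17, adjusted p = 0.00019). PIK3IP1, an inhibitor of PI3K at the membrane, rose by 1.05 ± 0.12, CCNG2, an atypical cyclin linked to arrest, by 1.05 ± 0.08, and the ubiquitin ligase FBXO32 by 1.05 ± 0.07. TXNIP, which restrains glucose uptake, rose by 0.62 ± 0.14 (adjusted p = 0.0049), but was not called without the alpelisib array (0.61, adjusted p = 0.063) or the combination array (0.35, adjusted p = 0.051) that had no L-histidinol. Of the factors themselves, FOXO3 rose by 0.29 ± 0.06, while FOXO1 (0.14 ± 0.15, adjusted p = 0.56) and FOXO4 (0.26 ± 0.13, adjusted p = 0.19) did not pass the test. Without the L-histidinol term 10 members were called higher, and neither KLHL24 (adjusted p = 0.082) nor TXNIP (adjusted p = 0.24) was.

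At the receptor level the ERBB family split. EGFR, the target of osimertinib, read a linear intensity of 512 and 666 with alpelisib alone and 344 and 447 with both drugs, and on the log2 scale fell by 0.58 ± 0.07 (adjusted p = 6.7e-05). ERBB3, the partner receptor that recruits PI3K, read 9.25 and 9.22 with alpelisib alone and 10.45 and 10.19 with both drugs and rose by 1.08 ± 0.07 (adjusted p = 2.9e-06). ERBB2 rose by 0.61 ± 0.07, the insulin receptor INSR by 0.54 ± 0.09 and FGFR3 by 0.95 ± 0.15. IRS2, the adaptor of the insulin receptor, went from 8.39 to 9.38 without and from 9.22 to 9.90 with L-histidinol (0.83 ± 0.12, adjusted p = 0.00029), and its relative IRS1 fell by 0.51 ± 0.08. AXL fell by 0.53 ± 0.07, and MET (-0.17 ± 0.07, adjusted p = 0.096) and IGF1R (0.14 ± 0.10, adjusted p = 0.39) did not pass the test. In all 7 of 18 measured receptors and adaptors rose and 4 fell. Of 8 measured EGF family ligands, 3 fell and 2 rose. TGFA differed by -1.11 in the pair without and -1.26 in the pair with L-histidinol (-1.19 ± 0.09, adjusted p = 5.9e-06). NRG1, the ligand of ERBB3, fell by 1.30 ± 0.10, or by 0.36 (adjusted p = 0.12) without the marked probe sets. The NRG1 probe set then read was dim, with a mean log2 of 3.21. HBEGF rose by 0.72 ± 0.18 (adjusted p = 0.010), but not without the alpelisib array (0.48, adjusted p = 0.20) or the combination array that had no L-histidinol (0.64, adjusted p = 0.060). Without either of those arrays 0 ligands were called higher. Without the L-histidinol term 2 receptors and adaptors were called higher and 2 lower, and EGFR, ERBB2, IRS2, FGFR3 and HBEGF were not called (adjusted p = 0.13, 0.067, 0.31, 0.21 and 0.25). Without the marked probe sets 3 of 13 receptors and adaptors were called higher.

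Members of the BCL2 family moved both ways. BMF, a BH3-only protein that antagonizes survival members, read a linear intensity of 38.5 and 40.5 with alpelisib alone and 128 and 109 with both drugs, a rise of 1.58 ± 0.11 in log2 (adjusted p = 3.4e-06). BCL2L11, or BIM, the BH3-only protein that ERK marks for degradation, went from 7.84 to 8.69 without and from 8.19 to 8.93 with L-histidinol (0.80 ± 0.07, adjusted p = 1.9e-05). The other BCL2L11 probe sets, from the brightest down, gave 0.57, 0.19, 0.005, 0.46, 0.14 and 0.31. BCL2L1, whose long form BCL-XL protects mitochondria, fell by 0.80 ± 0.10. The pro-death members BID (-0.67 ± 0.08), BAK1 (-0.43 ± 0.09) and BAX (-0.28 ± 0.09) also fell, as did both TRAIL receptors, TNFRSF10A (-0.47 ± 0.10) and TNFRSF10B (-0.26 ± 0.08). MCL1 (-0.03 ± 0.07, adjusted p = 0.85) did not pass the test. The whole list stood at 3 higher and 6 lower of 17. Of 14 p53 targets 6 rose and 2 fell. TP53INP1, a p53 target that promotes autophagy and cell death, read 5.54 and 5.59 with alpelisib alone and 7.92 and 7.71 with both drugs, and its rise of 2.25 ± 0.12 (adjusted p = 6.9e-07) was the second largest of all genes. PHLDA3, which competes with AKT for membrane lipid, rose by 0.87 ± 0.08, the nuclease AEN fell by 0.79 ± 0.10 and MDM2 stood at -0.12 ± 0.09 (adjusted p = 0.43).

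Interferon-stimulated genes had the largest share of rises among the 28 lists. Of 31 measured, 27 rose and 0 fell, against 14.6% of all genes higher, and the median difference was 0.71. GBP2, a guanylate-binding protein of antimicrobial defence, read 6.73 and 6.52 with alpelisib alone and 8.84 and 8.71 with both drugs (2.15 ± 0.12, adjusted p = 1.1e-06). OAS2, which makes the second messenger of RNase L, went from 5.54 to 7.75 without and from 5.76 to 7.75 with L-histidinol (2.10 ± 0.19, adjusted p = 1.6e-05). Both combination arrays of OAS2 reached the same level. MX1, a GTPase that blocks viruses, rose by 1.84 ± 0.23, and the factors IRF7 and IRF9, which amplify the response, by 1.66 ± 0.14 and 1.42 ± 0.13. ISG15, a ubiquitin-like modifier, rose by 0.69 ± 0.07, and OASL (0.15 ± 0.09, adjusted p = 0.28), ISG20, IFI44 and GBP3 did not pass the test. CXCL10 (-0.04 ± 0.13, adjusted p = 0.88) and CXCL11 (0.15 ± 0.13, adjusted p = 0.48), chemokines that interferon induces strongly in other cells, did not pass it either. The core of the interferon-stimulated response element, GAAA and a second GAAA with any 2 bases between them, was found on either strand in 15 of 24 promoters of this list (62.5%) and in 2.5% of all. It is shown in capitals for IFI44L (rise of 1.54 ± 0.22), IFI6 (1.34 ± 0.14) and IFIT1 (1.15 ± 0.11), where IFI6 and IFIT1 each have 2 matches within the stretch.
IFI44L, chr1:78620348-78620447, plus strand: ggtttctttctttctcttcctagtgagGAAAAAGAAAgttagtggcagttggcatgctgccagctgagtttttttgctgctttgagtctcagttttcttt
IFI6, chr1:27672193-27672322, minus strand: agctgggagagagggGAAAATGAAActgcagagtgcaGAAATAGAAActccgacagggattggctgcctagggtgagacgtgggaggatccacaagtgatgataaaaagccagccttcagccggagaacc
IFIT1, chr10:89392493-89392622, plus strand: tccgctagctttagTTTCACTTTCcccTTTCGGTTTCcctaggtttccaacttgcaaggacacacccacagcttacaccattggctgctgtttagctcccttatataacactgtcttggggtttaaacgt
IFIT1 carries its matches in the reverse sense and IFI44L and IFI6 in the forward sense. Genes of MHC class I presentation rose in 10 of 15 cases with 1 fall and a median of 0.38. HLA-E went from 9.99 to 10.81 without and from 10.27 to 11.04 with L-histidinol (0.79 ± 0.06, adjusted p = 5.7e-06), and tapasin, TAPBP, rose by 0.50 ± 0.08. TAP2, a subunit of the peptide transporter, was the member that fell (-0.66 ± 0.10, adjusted p = 0.00041), while TAP1 rose by 0.39 ± 0.09. HLA genes share long stretches of sequence, so signals of HLA-B, HLA-C, HLA-F and HLA-G may not be separate. Without the alpelisib array with L-histidinol 6 of these genes were called higher, without the marked probe sets 4 of 10, and without the L-histidinol term 2.

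Lysosomal and autophagy genes shifted up by smaller amounts. Of 28 measured lysosome genes 19 rose and 1 fell, median 0.36. CTSH, a cathepsin, read 9.55 and 9.31 with alpelisib alone and 11.05 and 10.50 with both drugs (1.35 ± 0.08, adjusted p = 1.3e-06). The cathepsins CTSF, CTSS and CTSD rose by 1.08 ± 0.07, 1.02 ± 0.13 and 0.85 ± 0.10, and the peptidase TPP1 by 0.89 ± 0.08, while CTSL stood at -0.13 ± 0.06 (adjusted p = 0.13). LAMP3, a lysosomal membrane protein of dendritic cells and lung, went from 5.36 to 6.97 without and from 6.70 to 7.76 with L-histidinol (1.33 ± 0.26, adjusted p = 0.0023). The galactosidase GLA was the member that fell (-0.77 ± 0.11). Of 21 autophagy genes 10 rose and 3 fell. ULK1, the kinase that starts autophagy, read 6.78 and 7.23 with alpelisib alone and 7.91 and 8.16 with both drugs (1.03 ± 0.09, adjusted p = 1.1e-05). The LC3 relative GABARAPL1 rose by 0.92 ± 0.11, the receptor OPTN by 0.88 ± 0.08 and WIPI1, which reads the autophagosome's lipid, by 0.81 ± 0.13. The E-box CACGTG, the core of the element bound by TFEB and its relatives, was found in 8 of 20 promoters of the lysosome list (40%), in 1 of 20 of the autophagy list and in 7.8% of all. Its letters read the same on both strands, and it is shown in capitals for CTSF, with 2 matches, and CTSD.
CTSF, chr11:66568607-66568736, minus strand: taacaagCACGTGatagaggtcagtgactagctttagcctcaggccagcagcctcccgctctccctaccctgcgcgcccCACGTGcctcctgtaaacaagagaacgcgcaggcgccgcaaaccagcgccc
CTSD, chr11:1763928-1764017, minus strand: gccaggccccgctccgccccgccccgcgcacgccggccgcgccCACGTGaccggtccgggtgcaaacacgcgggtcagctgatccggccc
TFEB (0.36 ± 0.13, adjusted p = 0.052) and TFE3 (0.18 ± 0.08, adjusted p = 0.12) themselves did not pass the test. The count of autophagy genes called lower was 1 without the alpelisib array, 1 without its L-histidinol partner and 0 without the combination array that had no L-histidinol. Without the marked probe sets 12 of 21 lysosome and 5 of 15 autophagy genes were called higher, and without the L-histidinol term 8 lysosome genes were, LAMP3 not among them (adjusted p = 0.40).

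**Figure D2:**
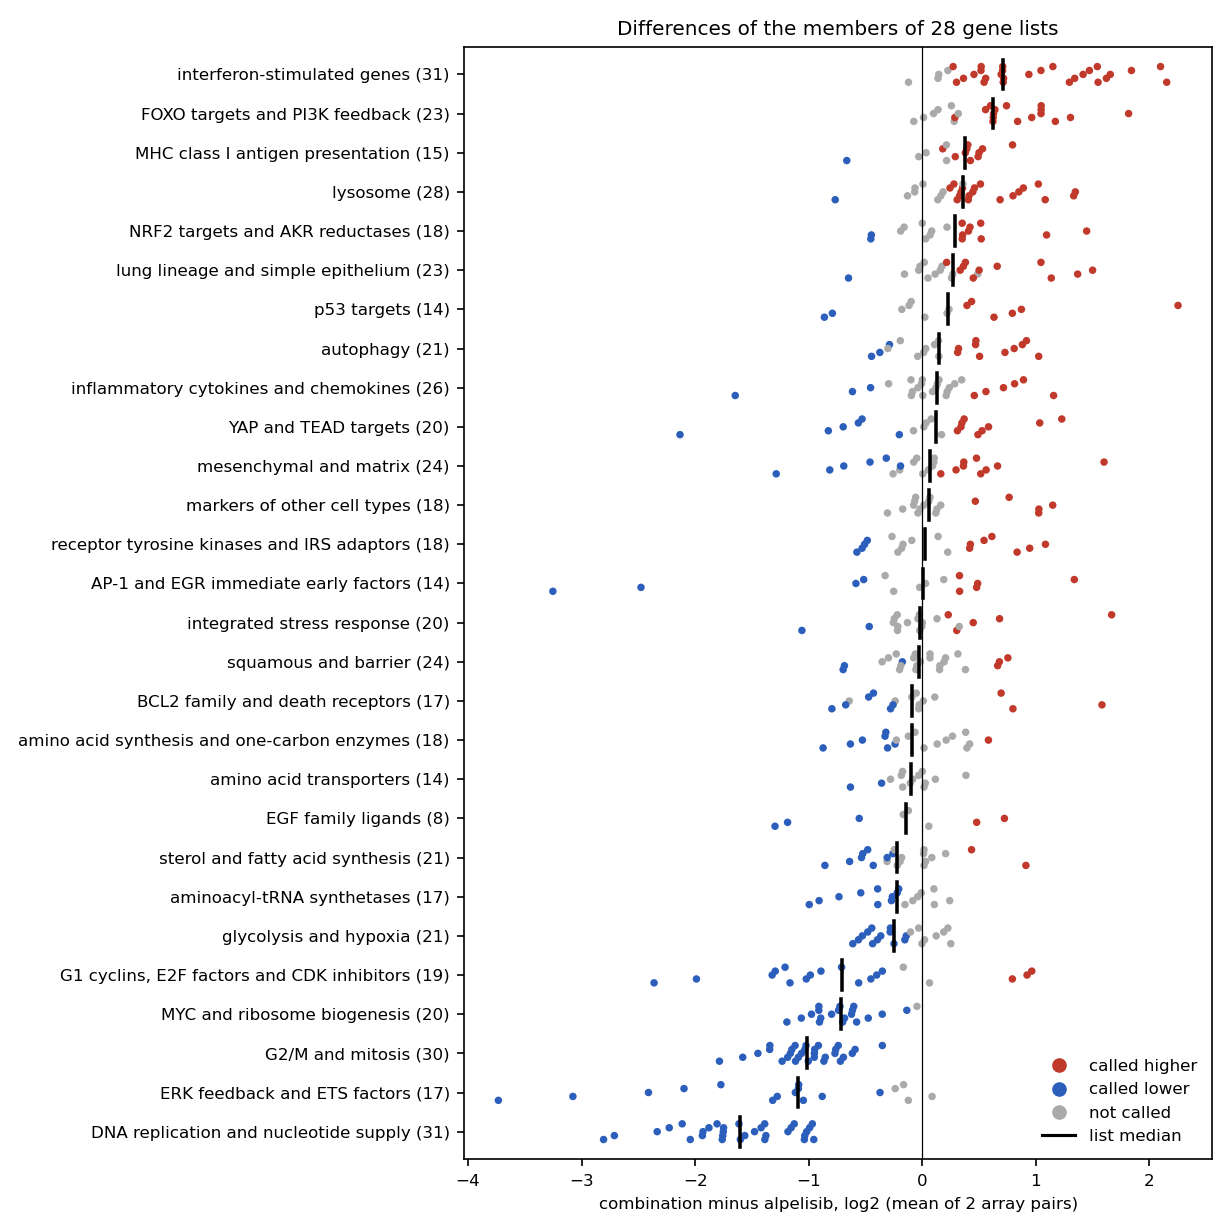
Difference of combination minus alpelisib on the log2 scale for every measured member of 28 gene lists, with the number of members in brackets; red points were called higher, blue points lower and grey points neither, and the black bar is the list's median. The lists of DNA replication and of G2/M and mitosis lie wholly on the lower side, with medians of -1.60 and -1.01, and the interferon-stimulated genes have the highest median, 0.71.

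Lineage genes of the lung and of simple epithelium rose in 11 of 23 cases and fell in 1. MUC1, a membrane mucin of glandular epithelium, read 9.71 and 9.66 with alpelisib alone and 11.26 and 11.12 with both drugs (1.50 ± 0.07, adjusted p = 2.7e-07). NKX2-1, the lung lineage factor, went from 8.57 to 9.64 without and from 8.14 to 9.16 with L-histidinol (1.05 ± 0.12, adjusted p = 7.0e-05), ELF3, an epithelial ETS factor, rose by 1.14 ± 0.10, and E-cadherin, CDH1, by 0.50 ± 0.06. HOPX rose by 1.37 ± 0.24 with the probe set used, but stood at -0.31 (adjusted p = 0.16) without the marked probe sets. The HOPX probe set then read was dim, with a mean log2 of 2.93 against 4.67, so the direction rests on the probe set used. Of 24 squamous and barrier genes 3 rose and 3 fell, 25% called against 29% of all genes. Among those that rose were the keratin KRT80 (0.75 ± 0.12) and the desmocollin DSC2 (0.66 ± 0.09). Mesenchymal and matrix genes gave 9 higher and 6 lower of 24. ITGA2, an integrin that binds collagen, went from 10.11 to 8.97 without and from 10.25 to 8.81 with L-histidinol (-1.29 ± 0.11, adjusted p = 1.2e-05), and the collagenase MMP13 rose by 1.60 ± 0.16 from a dim level while MMP1 fell by 0.81 ± 0.16. VIM stood at 0.10 ± 0.06 (adjusted p = 0.22). YAP and TEAD targets gave 9 higher and 6 lower of 20. NT5E, the ectonucleotidase CD73, read 10.53 and 10.46 with alpelisib alone and 8.38 and 8.35 with both drugs, a fall of 2.13 ± 0.08 (adjusted p = 1.5e-07), while GADD45B rose by 1.23 ± 0.06 and CCN2 stood at 0.08 ± 0.14 (adjusted p = 0.75). Without the alpelisib array 5 mesenchymal genes were called higher, and without its L-histidinol partner 1 squamous gene was called lower. Without the marked probe sets 4 of 14 lung and epithelial genes were called higher. Without the L-histidinol term 5 lung, 2 mesenchymal and 5 YAP genes were called higher and 3 mesenchymal and 0 squamous genes lower, and NKX2-1 was not called (adjusted p = 0.093).

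Of 26 measured cytokines and chemokines 6 rose, 3 fell and 17 did not pass the test. The share called was 34.6%, against 29% of all genes. A mean log2 of at least 5 was reached by 15 of the 26, and 5675 of 11627 genes at that level were called in their own fit. IL11, an IL-6 family cytokine, went from 8.95 to 7.27 without and from 8.95 to 7.34 with L-histidinol (-1.65 ± 0.10, adjusted p = 2.0e-06). IL6 went the other way, from 6.80 to 7.66 without and from 7.62 to 9.07 with L-histidinol (1.16 ± 0.21, adjusted p = 0.0016), and the chemokine CCL5 rose by 0.89 ± 0.12. CXCL8 (-0.09 ± 0.27, adjusted p = 0.87) and IL1B (-0.10 ± 0.11, adjusted p = 0.59) did not pass the test. Among NRF2 targets and aldo-keto reductases 9 of 18 rose and 2 fell. AKR1B10 rose by 1.45 ± 0.12 and AKR1C3 by 1.09 ± 0.14, both enzymes that reduce aldehydes and ketones, and haem oxygenase HMOX1 rose by 0.52 ± 0.07. The glutathione enzyme GCLM (-0.45 ± 0.07) and the sulfiredoxin SRXN1 (-0.45 ± 0.08), classical NRF2 targets, fell, and NQO1 stood at 0.08 ± 0.06 (adjusted p = 0.35). Without the marked probe sets 4 of 14 NRF2 and reductase genes and 3 of 21 cytokines were called higher. When the L-histidinol term was dropped 3 cytokines were called higher and 1 lower, 0 NRF2 targets were called lower, and IL6 was not called (adjusted p = 0.14).

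Glycolytic genes fell in 13 of 21 cases with 0 higher and a small median of -0.25. HK2, the inducible hexokinase, went from 8.33 to 7.67 without and from 8.68 to 8.11 with L-histidinol (-0.61 ± 0.08, adjusted p = 0.00019), and the isomerase GPI fell by 0.56 ± 0.08. The glucose transporters SLC2A1 (0.19 ± 0.09, adjusted p = 0.14) and SLC2A3 (0.02 ± 0.09, adjusted p = 0.91) did not pass the test. Sterol and fatty acid synthesis gave 8 lower and 2 higher of 21. Of the genes that fell 5 act in fatty acid synthesis, among them the elongase ELOVL6 (-0.86 ± 0.08), the factor SREBF1 (-0.64 ± 0.12) and the synthase FASN (-0.48 ± 0.09). LSS, the cyclase that makes lanosterol, rose by 0.91 ± 0.10, and HMGCS1 (-0.31 ± 0.14, adjusted p = 0.13) and SQLE (0.01 ± 0.10, adjusted p = 0.96) did not pass the test. Leaving out either alpelisib array gave 8 glycolytic genes lower, and leaving out the one with L-histidinol gave 5 sterol and fatty acid genes lower. Without the marked probe sets 6 of 12 glycolytic and 4 of 15 sterol and fatty acid genes were called lower. In the fit that lacks the L-histidinol term these counts were 3 and 3, and HK2 was not called (adjusted p = 0.082).

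Genes of the amino acid response, which L-histidinol engages, moved both ways. Of 20 genes of the integrated stress response 5 rose and 2 fell, with a median of -0.02. The share called was 35%, against 29% of all genes. Of the 20, 17 had a mean log2 of at least 5, where 5675 of 11627 genes were called in their own fit. In the alpelisib arrays these 20 stress genes differed by a median of 0.82 between L-histidinol and no L-histidinol. ATF4, the factor of this response, read 10.80 and 11.65 with alpelisib alone and 11.26 and 11.80 with both drugs, so the groups overlap. Its difference of 0.30 ± 0.09 (adjusted p = 0.024) was not called without the alpelisib array (0.28, adjusted p = 0.18), without its L-histidinol partner (0.32, adjusted p = 0.12) or without the combination array that had no L-histidinol (0.12, adjusted p = 0.33). NUPR1, a small stress protein, went from 7.61 to 9.69 without and from 9.45 to 10.70 with L-histidinol (1.67 ± 0.25, adjusted p = 0.00047), and DDIT3, or CHOP, rose by 0.68 ± 0.09. TRIB3 (-0.22 ± 0.12, adjusted p = 0.23), CHAC1 (-0.04 ± 0.20, adjusted p = 0.92) and the synthetase ASNS (-0.23 ± 0.17, adjusted p = 0.38) did not pass the test. PSAT1, an enzyme of serine synthesis, fell from 9.75 to 8.82 without and from 11.43 to 10.62 with L-histidinol, so its fall of 0.87 ± 0.06 (adjusted p = 5.5e-06) shows within each pair while the groups overlap. The amino acid enzymes gave 7 lower and 1 higher of 18, and the transporters 2 lower of 14. For the transporters that is 14.3%, against 14.4% of all genes lower, with the arginine carrier SLC7A1 (-0.63 ± 0.08) furthest down. A mean log2 of at least 5 was reached by 11 of the 14 transporters, and 2862 of 11627 genes at that level were called lower in their own fit. Of 17 aminoacyl-tRNA synthetases 10 fell and 0 rose. VARS1 for valine fell by 0.91 ± 0.08, FARSA for phenylalanine by 0.73 ± 0.11 and HARS1, the histidine enzyme that L-histidinol competes for, by 0.54 ± 0.07. Another VARS1 probe set, with a mean log2 of 6.39, gave only -0.13, so the size of the VARS1 fall rests on the probe set used. Without the marked probe sets 5 of 12 synthetases were called lower. Without the alpelisib array the lower counts were 6 synthetases, 4 enzymes and 1 transporter. In the stress list 3 genes were called higher without either alpelisib array or without the combination array that had no L-histidinol, and 6 were called lower without the last. When the L-histidinol term was dropped 0 stress genes were called higher, and 5 synthetases, 2 enzymes and 0 transporters lower. ATF4, NUPR1, DDIT3, PSAT1 and SLC7A1 were then not called (adjusted p = 0.74, 0.32, 0.11, 0.60 and 0.37).

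The largest rise of any gene was that of CLIC3, a chloride channel protein that recycles integrins, which read 7.78 and 6.58 with alpelisib alone and 9.99 and 9.04 with both drugs (2.33 ± 0.13, adjusted p = 7.8e-07). CYP1A1, the oxidase induced by the aryl hydrocarbon receptor, went from 5.94 to 8.03 without and from 6.08 to 8.11 with L-histidinol (2.07 ± 0.12, adjusted p = 8.9e-07). ALPP, the placental alkaline phosphatase, rose by 1.99 ± 0.16, the secreted glycoprotein CHI3L1 by 1.92 ± 0.10, the microtubule-binding protein MAP7D2 by 2.10 ± 0.09 and the zinc finger protein ZSCAN31 by 1.89 ± 0.09. The pregnancy-specific glycoproteins PSG3 (1.89 ± 0.14), PSG4 (1.85 ± 0.10) and PSG6 (1.80 ± 0.15) rose together, but these genes are near-identical copies read by probe sets marked for cross-hybridization, so they cannot be counted as separate. TMT1A (2.09) and CLEC7A (2.00) were also among the large rises, but without the marked probe sets they stood at -0.003 and -0.012. The probe sets then read had mean log2 values of 4.65 and 1.36, so the CLEC7A one could hardly show a change. Other CLEC7A probe sets, all marked, gave 2.66, 1.57, 1.29 and 0.16. Among the large falls outside the lists were the noncoding RNA LINC00973 (-2.56 ± 0.11), the exonuclease EXO1 (-2.40 ± 0.21), CDCA7, a chromatin protein of S phase (-2.39 ± 0.11), and ACOX2, a peroxisomal oxidase (-2.23 ± 0.16). In the fit that lacks the L-histidinol term CLIC3 and ALPP were not called (adjusted p = 0.061 and 0.094).

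The same drug was added to vehicle on the other 4 arrays, and this osimertinib minus vehicle difference shares no array with the one above. It was called higher in 3246 genes (16.4%) and lower in 2765 (14%). Of the genes raised on alpelisib 78.5% were also raised on vehicle, which is 70.0% of the latter, and of the genes lowered 77.3% and 79.3%. A single gene was called in opposite directions. Across genes, which are not independent replicates, the differences on alpelisib and on vehicle correlated at r = 0.855, with SDs of 0.37 and 0.38. The ERK outputs had list medians of -1.09 on alpelisib and -1.25 on vehicle. DUSP6 differed between the backgrounds by 0.26 ± 0.26 (95% interval -0.31 to 0.83, adjusted p = 0.82) and EGFR by -0.04 ± 0.09 (95% interval -0.24 to 0.17, adjusted p = 0.95). The replication list had a median of -1.60 on alpelisib and -1.17 on vehicle, and 28 of 31 members fell further on alpelisib, and the difference was larger on alpelisib for 9590 of all 19775 genes. For 13 members the difference between backgrounds had an unadjusted p below 0.05 and for 0 an adjusted one, where 8.84% of all genes had the former. UHRF1, with -2.23 on alpelisib and -1.35 on vehicle, differed by -0.88 ± 0.14 (95% interval -1.20 to -0.56, adjusted p = 0.084). In the mitosis list 29 of 30 fell further on alpelisib, and the rise was larger on alpelisib in the interferon list for 22 of 31.

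The difference between the osimertinib effects was called for 6 genes (0.0303%), all with the value on alpelisib below that on vehicle, and for 1748 genes at an unadjusted p below 0.05. FBXO32, a FOXO-induced ubiquitin ligase, rose by 1.98 on vehicle and by 1.05 on alpelisib, a difference of -0.94 ± 0.09 (adjusted p = 0.0050). Its vehicle arrays read 9.22 and 9.50, its alpelisib arrays 10.51 and 10.79 and its combination arrays 11.67 and 11.73. The alpelisib arrays of FBXO32 thus lay between the vehicle and the combination arrays. MB, myoglobin, rose by 1.60 on vehicle and 0.48 on alpelisib (-1.12 ± 0.12, adjusted p = 0.0070). CCN5, a secreted matricellular protein, rose by 2.67 and 1.73 (-0.95 ± 0.09, adjusted p = 0.0050). AFAP1L2 (-0.92 ± 0.12, adjusted p = 0.028) and SMIM14 (-0.86 ± 0.09, adjusted p = 0.0050) behaved likewise, rising on both backgrounds and less on alpelisib. NME1, a nucleoside diphosphate kinase, fell by 0.61 on vehicle and by 1.25 ± 0.06 on alpelisib, so for NME1 the fall was larger with alpelisib (-0.64 ± 0.08, adjusted p = 0.028). These calls rest on few arrays. The count was 0 without the osimertinib, the alpelisib, the L-histidinol osimertinib or the L-histidinol alpelisib array (1213, 1097, 1326 and 1126 genes at an unadjusted p below 0.05). It was 11 without the combination array, 15 without the array of L-histidinol alone, 9 without the vehicle array and 68 without the array of both drugs with L-histidinol.

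**Figure D3:**
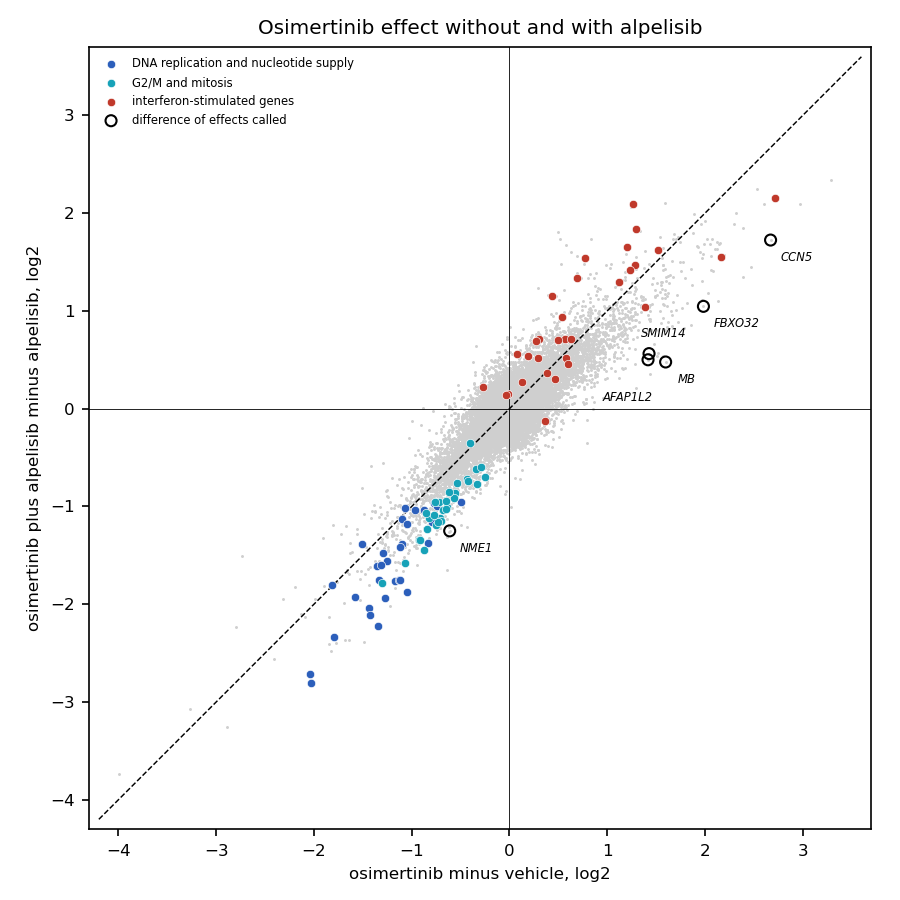
Osimertinib minus vehicle (horizontal axis) against osimertinib plus alpelisib minus alpelisib (vertical axis), log2, for all 19775 genes in grey, with replication, mitosis and interferon-stimulated genes in colour and the 6 genes called in the difference of effects circled; the dashed line marks equal effects. Of the replication genes 28 of 31 and of the mitosis genes 29 of 30 lie below the line, that is with a larger fall on alpelisib.

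The pairs without and with L-histidinol are 1 array against 1 each, so the gap between these 2 pairs alone leaves no residual degrees of freedom for a test. Across genes they correlated at r = 0.815, and at 0.919 over the 11627 genes with a mean log2 of at least 5. The SD of the differences was 0.43 without and 0.35 with L-histidinol, and the difference was the larger without L-histidinol in 11891 of 19775 genes. In the replication list this held for all 31 members, with medians of -1.90 without and -1.29 with L-histidinol, and in the mitosis list for all 30, with -1.25 and -0.73. The levels on the 4 arrays differed as follows. With alpelisib alone, 31 of 31 replication genes were lower on the L-histidinol array, by a median of 0.59. With both drugs 12 were lower, with a median difference of 0.11. For the mitosis genes the medians were -0.24 with alpelisib alone and 0.27 with both drugs. ERK outputs showed no such order, with 7 of 17 larger without L-histidinol, and the interferon genes had medians of 0.80 and 0.77.

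**Figure D4:**
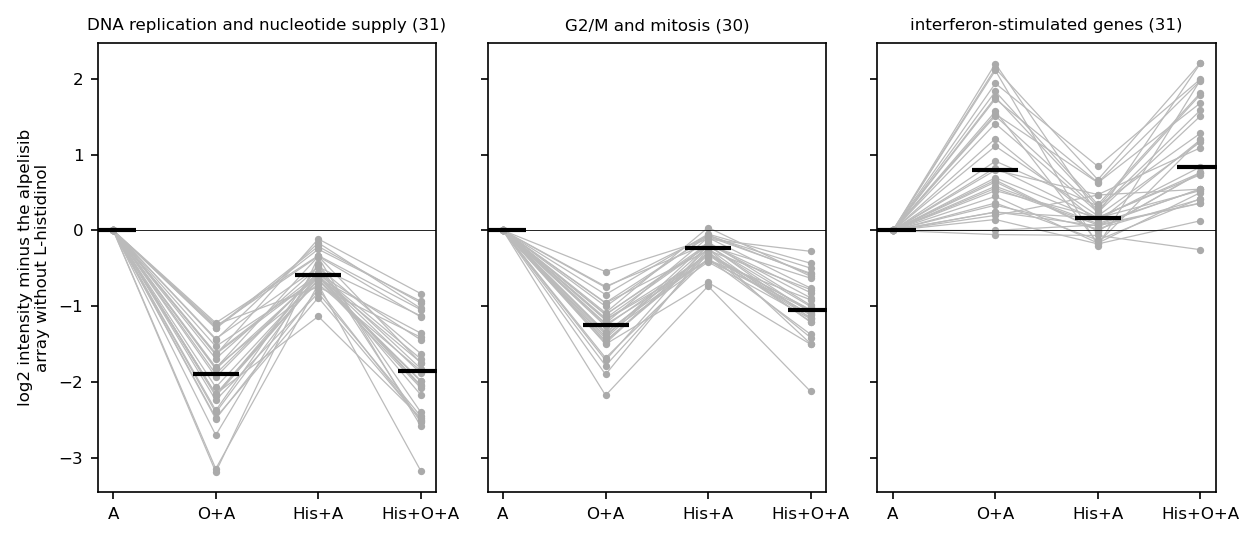
Log2 intensity of each member of 3 lists on the 4 arrays with alpelisib, less its value on the alpelisib array without L-histidinol; A is alpelisib, O+A both drugs and His L-histidinol, grey lines are genes and black bars list medians. Replication and mitosis genes start lower on the His+A array, by medians of 0.59 and 0.24, and with both drugs lie 0.11 and 0.27 higher with L-histidinol than without it.

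The pair differences lay at least 1 log2 unit apart in 27 genes (0.137%), 16 of them higher and 11 lower with L-histidinol. The exonuclease EXO1, whose difference was -2.99 without and -1.80 with L-histidinol, the checkpoint adaptor CLSPN (-2.22 and -0.89) and the licensing factor CDT1 (-1.90 and -0.88) fell in both pairs and less with L-histidinol. EGR1 was the reverse, with -1.95 and -3.00. ALDH1L2, a mitochondrial folate enzyme of the amino acid response, read 4.71 and 6.89 with alpelisib alone and 5.63 and 6.80 with both drugs, so its rise of 0.92 without L-histidinol had no counterpart with it (-0.09). The receptor GPR19 gave -1.03 and 0.01. Just under 1 unit apart, and so not among the 27, were the ERK brake SPRY4 (-0.66 and -1.57) and NIBAN1, another stress-induced gene (0.83 and -0.08). NIBAN1 read 7.61 and 8.85 with alpelisib alone and 8.45 and 8.77 with both drugs, so that both stress genes were higher on the alpelisib array with L-histidinol than on the one without it.

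Whether adding osimertinib did something else under L-histidinol was tested with a term shared by both backgrounds, alpelisib and vehicle, and chosen after the data were seen. It is the osimertinib difference with L-histidinol minus that without, averaged over the backgrounds. Added alone to the limma fit (2 residual degrees of freedom), it was called for 3 of 19775 genes (0.0152%) and had an unadjusted p below 0.05 in 1996. The mitotic ubiquitin-conjugating enzyme UBE2C stood at 0.59 ± 0.07, so that it fell less with L-histidinol, the G1 cyclin CCND1 at -0.74 ± 0.10 and EGR1 at -1.06 ± 0.14 (adjusted p = 0.042 for each). EXO1 (0.60 ± 0.23, adjusted p = 0.41), ALDH1L2 (-1.06 ± 0.27, adjusted p = 0.21) and GPR19 (0.76 ± 0.18, adjusted p = 0.17) did not pass. With all 2-way terms in the fit, which leaves 1 residual degree of freedom, 896 genes were called (4.53%), 576 higher and 320 lower. EXO1, ALDH1L2 and GPR19 were among them. This fit has 102.7 prior degrees of freedom, against 9.609 with the term alone. Its calls thus rest almost wholly on a variance pooled over genes, not on the spread of each gene. Then 30 of 30 mitosis genes (median 0.53) and 13 of 31 replication genes (median 0.29) were called higher and none lower, against 1 and 0 with the term alone. Leaving out an array moved the count as well, to 0 without either array of vehicle or of both drugs, 89 and 90 without an osimertinib array, and 16 and 15 without an alpelisib array.

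**Figure D5:**
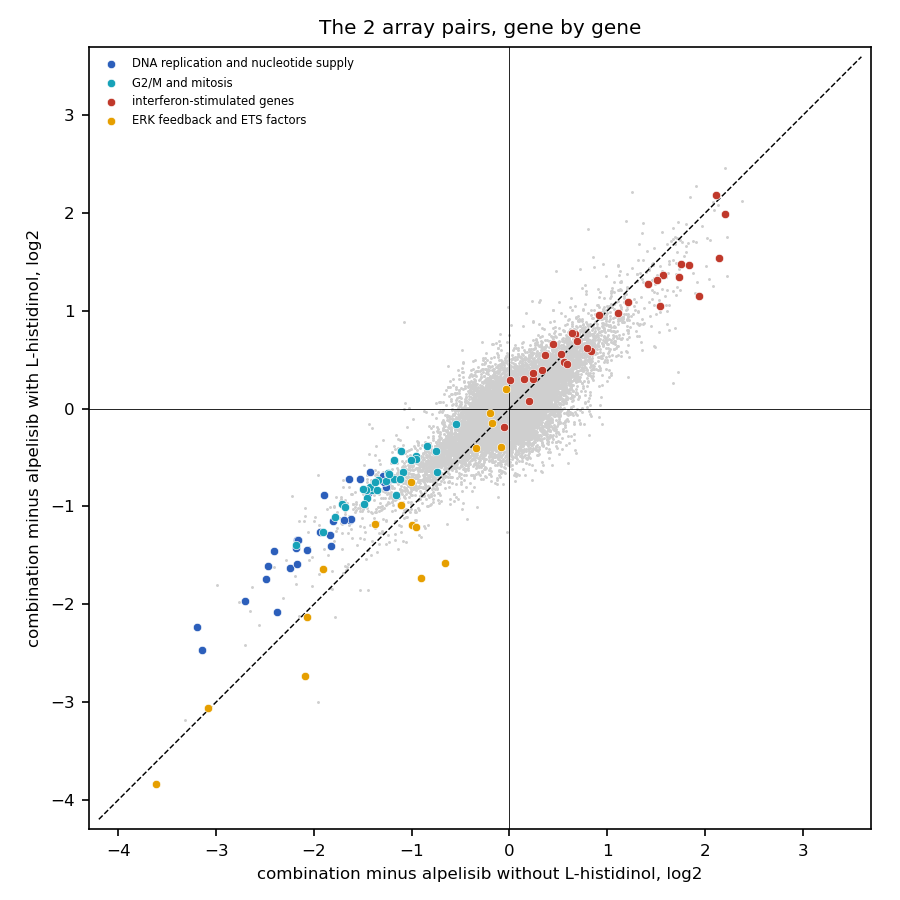
Combination minus alpelisib without L-histidinol (horizontal axis) against the same difference with L-histidinol (vertical axis), log2, each point a gene and each axis 1 array against 1; the dashed line marks equal differences. Replication and mitosis genes lie above the line on the falling side, with list medians of -1.90 and -1.29 for replication, and the interferon-stimulated genes have medians of 0.80 and 0.77.

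The epithelial identity of the line was checked on the 4 arrays. The 9 measured epithelial and lung markers summed to an intensity of 30973 and 27811 with alpelisib alone and 34113 and 29814 with both drugs. Of 18 measured markers of blood, endothelium and fibroblasts 11 had a mean log2 under 5, where 41.2% of all genes lie, and 5 rose, COL1A1, COL1A2, LUM, CDH5 and ACTA2. COL1A1, a collagen chain, read 8.79 and 8.63 with alpelisib alone and 10.10 and 9.62 with both drugs (1.15 ± 0.09, adjusted p = 7.5e-06). Its other probe sets, from the brightest down, gave -0.075, 1.06, -0.13 and 0.90. All COL1A1 probe sets are marked, so the gene has no value without them. The summed intensity of the 18 markers was 952 and 860 with alpelisib alone and 1784 and 1337 with both drugs, and without COL1A1 and COL1A2 413 and 385 against 473 and 404. ACTA2 was not called when any 1 of the 4 arrays compared was left out (adjusted p = 0.062 to 0.21) or without the L-histidinol term (adjusted p = 0.15), and without the marked probe sets LUM (0.32, adjusted p = 0.094) and COL1A2 (0.11, adjusted p = 0.64) were not called. The probe sets left for LUM and COL1A2 without the marked ones were dim, with mean log2 values of 2.05 and 3.41. The part of the 18 markers in the results above was not tested. Quartiles of intensity lay at 7.47 to 7.66 and 101 to 106 on every array. The ratio of the 3′ to the 5′ control probe set of ACTB, a sign of RNA integrity, was 1.04 in both arrays without L-histidinol and 1.10 in both with it, and so did not differ between alpelisib and the combination.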

How the data were processed

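Total RNA from NCI-H1975 cells was hybridised to 8 Affymetrix U133 Plus 2.0 arrays, 1 per condition, and the 4 with alpelisib were compared. The deposited values are linear intensities per probe set, which the authors computed by RMA in affy, per the submitters' processing notes, with versions not given in the sources used here. As usually run, RMA draws all arrays to a common distribution, so a shift shared by most genes would not show, and it compresses differences of dim probe sets. Log2 of the deposited intensity was taken. Of 54675 probe sets 62 were controls, 41091 had 1 gene symbol, 1801 several and 11721 none, and only the first kind was used. Where several probe sets named a gene, that with the highest mean was kept, which left 19775 genes, with no filter on dim genes. Precision is limited by the number of arrays, 1 per condition.

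All 8 arrays were fitted in limma 3.58.1 (R 4.3.3) as the sum of an L-histidinol term and a drug treatment of 4 levels, with variances that follow mean intensity (3 residual and 8.08 prior degrees of freedom). The L-histidinol term sets each combination array beside the alpelisib array of the same medium, a pairing that comes from the labels. The contrasts were combination minus alpelisib, osimertinib minus vehicle, and the difference of both. P-values were two-sided and adjusted across genes (Benjamini-Hochberg), and the procedure was tested on simulated data. Alternatives were the mean of a gene's probe sets, leaving out marked probe sets, a minimum mean log2 of 5, median centring, quantile normalization, the 4 arrays alone, all 2-way terms, no L-histidinol term, a single variance prior, and leaving out each array in turn. A term for L-histidinol by osimertinib was added after the data were seen. The alternatives were run for the counts, the lists and the genes of the naming rule.

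The members, the 28 gene lists (568 distinct genes measured of 615) and the tests were chosen with earlier results of these data known. Genes were named by a rule: the 15 largest rises and falls at a mean log2 of at least 5, in each list up to 5 members with the largest difference, the largest called differences of osimertinib effects, the 5 largest differences between pairs each way, and 12 fixed genes. Other genes described, and the promoters shown, were chosen after their values were seen. Promoter sequences come from RefSeq (GRCh38.p14), matched by gene for 15384 genes. Python 3.11.15, pandas 2.3.3, numpy 2.4.6 and matplotlib 3.10.9 were used for tables and figures.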

Additional observations from a re-analysis of the deposited data

Results flagged for a closer look

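The effect of adding osimertinib differed between cells with and without alpelisib for 6 genes, by limma's test of the difference itself (adjusted p below 0.05 over 19775 genes). The effect with alpelisib minus that without was -1.12 ± 0.12 for MB, -0.95 ± 0.09 for CCN5, -0.94 ± 0.09 for FBXO32, -0.92 ± 0.12 for AFAP1L2, -0.86 ± 0.09 for SMIM14 and -0.64 ± 0.08 for NME1. The first 5 rose with osimertinib on both backgrounds and NME1 fell on both. In every one of these genes both L-histidinol states showed the difference in the same direction, as such a call largely requires.

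Without replicates inside a pair, 3 genes with a pair difference gap of at least 0.9 moved opposite ways in the pairs, and for the gap of these pairs by itself there was no test. The pair with L-histidinol minus the pair without it was 1.04 for GPR19, -1.01 for ALDH1L2 and -0.91 for NIBAN1. The term shared with the vehicle arrays did not pass for them when added alone to limma's fit (adjusted p = 0.17, 0.21 and 0.34). It did with all 2-way terms in the fit (adjusted p = 0.0016, 4.1e-08 and 6.5e-13), which leaves 1 residual degree of freedom, so the outcome depends on the fit. In all 3 the pair with L-histidinol lay close to 0, at 0.01, -0.09 and -0.08.

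Over both backgrounds the osimertinib difference itself differed with L-histidinol for 3 genes by limma's test of a shared term, UBE2C (0.59 ± 0.07), CCND1 (-0.74 ± 0.10) and EGR1 (-1.06 ± 0.14). The term was chosen after the data were seen.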

How the results depend on the processing

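The count of genes called between combination and alpelisib was 5735, and from 2968 to 6282 when 1 array was left out. The pairing by L-histidinol matters most: without that term, that is with no replicate block, 2196 genes were called, all among the 5735. The other alternatives gave 4099 (of 16788 genes, marked probe sets left out) to 7593 (all 2-way terms). The difference of osimertinib effects was called for 6 genes, for 0 to 68 with 1 array left out, and for 0 without the L-histidinol term (597 at an unadjusted p below 0.05 in limma), with the mean of probe sets (1564) or with a single prior (1547). It was called for 13 genes without marked probe sets and 1215 with all 2-way terms. The fit with all 2-way terms leaves 1 residual degree of freedom beside 102.66 prior ones, against 3 and 8.08 in the main fit. Quantile normalization gave 5 and dropped AFAP1L2. The L-histidinol by osimertinib term, added after seeing the data, called 3 genes, from 0 to 90 with 1 array left out, 896 with all 2-way terms and 23 without marked probe sets. It called 0 with the mean of probe sets (1843 at an unadjusted p below 0.05), a minimum mean log2 of 5 (1501), quantile normalization (1917) or a single prior (1610). The cause was not tested.

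Of 172 named genes 166 were called, and 109 kept direction and call under all alternatives run. In 5 genes the sign turned: without marked probe sets TMT1A stood at -0.0030, CLEC7A at -0.012, HOPX at -0.31 and CXCL2 at -0.064, and with the mean of probe sets MTHFD1 at 0.15. These settings read other probe sets of the same gene. Those left without the marked ones were dim, with mean log2 values of 1.36 for CLEC7A, 2.93 for HOPX, 3.09 for CXCL2 and 4.65 for TMT1A. Without marked probe sets the calls of FARSB, HLA-F, FN1, NFKBIA and AKR1C1 were also lost, each on probe sets with a mean log2 under 5. Among list counts not given above, centring gave 3 stress genes higher and 4 lower, and 4 transporters lower, and without marked probe sets 2 of 15 markers of other cells were higher and 3 of 12 AP-1 and EGR factors. Low intensities may bound the size of large falls, which was not tested for DUSP6 and MCM10.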

Other observations

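Gene families outside the lists were limited to members whose mean log2 reached 5, and were chosen after the values were seen, so their counts are descriptions. Of all 11627 genes at that level, fitted on their own, 2813 rose and 2862 fell. That mean includes arrays with osimertinib, so a member can pass through the arrays where it is high. The histones H4C5 and H3C6 read 4.81 and 4.78 on the alpelisib array without L-histidinol. Subunits of the proteasome, which degrades ubiquitinated proteins, fell in 25 of 33 cases, with PSMD2 at -0.85 ± 0.08. The 3 that rose were PSMB8 (0.29 ± 0.07), PSMB9 (0.46 ± 0.07) and PSMB10 (0.57 ± 0.07), the catalytic subunits of the immunoproteasome. Without the alpelisib array 12 subunits were called lower, without its L-histidinol partner 16 and without the L-histidinol term 7. Nucleoporins, the parts of the nuclear pore, fell in 18 of 26 cases (median -0.57), with NDC1 at -1.16 ± 0.13. Tubulins fell in 10 of 14 (median -0.49), with TUBG1, the gamma-tubulin of the centrosome, at -1.42 ± 0.08, and 7 of 8 subunits of the cytosolic chaperonin that folds tubulin and actin fell (median -0.51). Of the subunits of RNA polymerase III, which makes tRNA, 6 of 9 fell, POLR3G (-1.46 ± 0.12) and POLR3K (-1.41 ± 0.12) furthest, and 4 without either the alpelisib or the combination array that had no L-histidinol. Cytosolic ribosomal proteins were seldom called, with 1 of 49 higher and 1 lower. Without the L-histidinol term 12 nucleoporins, 5 tubulins and 2 subunits of polymerase III were called lower.

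Clustered histone genes, counted here with H1-10 from outside the clusters, rose in 16 of 20 cases (median 0.54), and which transcript form was read was not tested. The count was 7 without the alpelisib or without the combination array that had no L-histidinol, and 4 without the L-histidinol term. The 4 YPEL genes at that level (YPEL1, YPEL2, YPEL3 and YPEL5), small zinc-binding proteins, rose (median 1.09), with YPEL3 at 1.57 ± 0.08. The complement genes C1R, C1RL, C1S, C3, CFB and CFI, a choice that leaves out others such as C2 (0.19 ± 0.17, adjusted p = 0.48) and C5 (-0.47 ± 0.17, adjusted p = 0.058), rose (median 1.06), with C1R at 1.48 ± 0.09, and 6 of 8 genes of MHC class II did (median 0.61), with HLA-DMA at 1.16 ± 0.10. The 7 pregnancy-specific glycoproteins rose (median 1.74), but only 2 remain without marked probe sets, of which 1 was called.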
